A study of Mus musculus with 7 samples.

Results

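The 43 genes described here encode actin and the proteins that build, branch, cap, sever and anchor its filaments, together with the small GTPase switches that direct them and the intermediate filament protein vimentin. They were taken by name, from a list of genes with these roles, among the 55341 names in the count table, and all 43 were found. After removal of genes with low counts, 15257 genes were tested, and all 43 were among them. They fall into 11 functional classes.

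Microglia crawl, extend processes and engulf particles by pushing their membrane outward with branched actin. Rac and Cdc42 switch on the WAVE complex and WASP, these activate the Arp2/3 complex, and Arp2/3 starts new filaments on the sides of old ones. Profilin and thymosins hold the pool of actin monomers, cofilin and coronins take old filaments apart, and gelsolin-family proteins sever and cap them.

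Wild-type (WT) embryonic neuronal cells had been injected into the cortex of 5xFAD mice, a C57BL/6 strain that expresses mutant human transgenes from the neuronal Thy1 promoter and deposits amyloid-β (Aβ). At 4 weeks after injection, with mice labelled as 14 weeks old, CD11b+CD45low cells, the surface profile of microglia, were sorted from dissected grafts (inside graft, 3 libraries) and from pieces of cortex near the transplant (outside graft, 4 libraries) for bulk RNA sequencing. All libraries, the controls included, came from grafted 5xFAD mice, and the comparison asks whether microglia that had entered WT tissue differed from those outside it. The labels do not say whether libraries came from separate mice, so P values measure only the spread between these samples.

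Libraries held between 18644807 and 25882122 counted reads. Outside graft 1 had the fewest and stood apart from the other 6 on the first principal component. All 10 microglia markers were present in every library, with a summed level of 47441 to 55107 CPM (a gene's counts scaled to the size of the library) inside and 54368 to 60334 CPM outside. Of the 10, 3 (P2ry12, Cx3cr1 and Sall1) were lower in every inside library than in any outside library, as were 5.02% of all genes tested. Markers of other myeloid cells and of dividing cells had higher summed levels in most inside libraries. Their values are given below, beside those of Gsn, Ezr, Vim and Capg.

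No member passed an adjusted P of 0.05. With edgeR's quasi-likelihood test the count was 0 of 43, beside 15 of all 15257 genes (0.0983%), and with limma's voomWithQualityWeights it was 0 of 43, beside 75 of all genes (0.492%). The lowest adjusted P of any member was 0.0710 with edgeR and 0.0546 with voomWithQualityWeights, both for Gsn. At an unadjusted P below 0.05, edgeR gave 9 members and voomWithQualityWeights 11 (25.6%, beside 12.2% of all genes). Of the 9, 8 had higher levels inside, 18.6% of the members beside 5.76% of all genes, and 1 had a lower level, 2.33% beside 3.79%. The DESeq2 Wald test, run as an alternative, called 2 members at an adjusted P below 0.05, Gsn and Elmo1 (4.65%, beside 2.75% of all genes). Without inside graft 2, edgeR called 1 member (Gsn) and 0.455% of all genes, and voomWithQualityWeights 2 members (Gsn and Vim) and 1.29% of all genes.

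Fold changes are edgeR log2 values of inside over outside. Their median over the 43 members was 0.03, beside -0.01 for all genes tested, and 39 of the 43 lay within 0.5 of 0, as did 75.5% of all genes. For 38 members (88.4%) the 95% interval of this fold change stayed between -1 and 1, that is, within a factor of 2, which held for 55.1% of all genes. A bound of 1.5-fold, chosen after the values were seen, held 33 members (76.7%) and 29.0% of all genes. The members were abundant, 40 of them at 10 CPM or more outside, and their median standard error was 0.13 beside 0.27 for all genes. The 5 members whose interval did not stay within a factor of 2 were Tmsb10, Capg, Gsn, Ezr and Vim. For Gsn (1.43 to 3.27) and Vim (1.47 to 5.50) it lay wholly above 1.

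**Figure D1:**
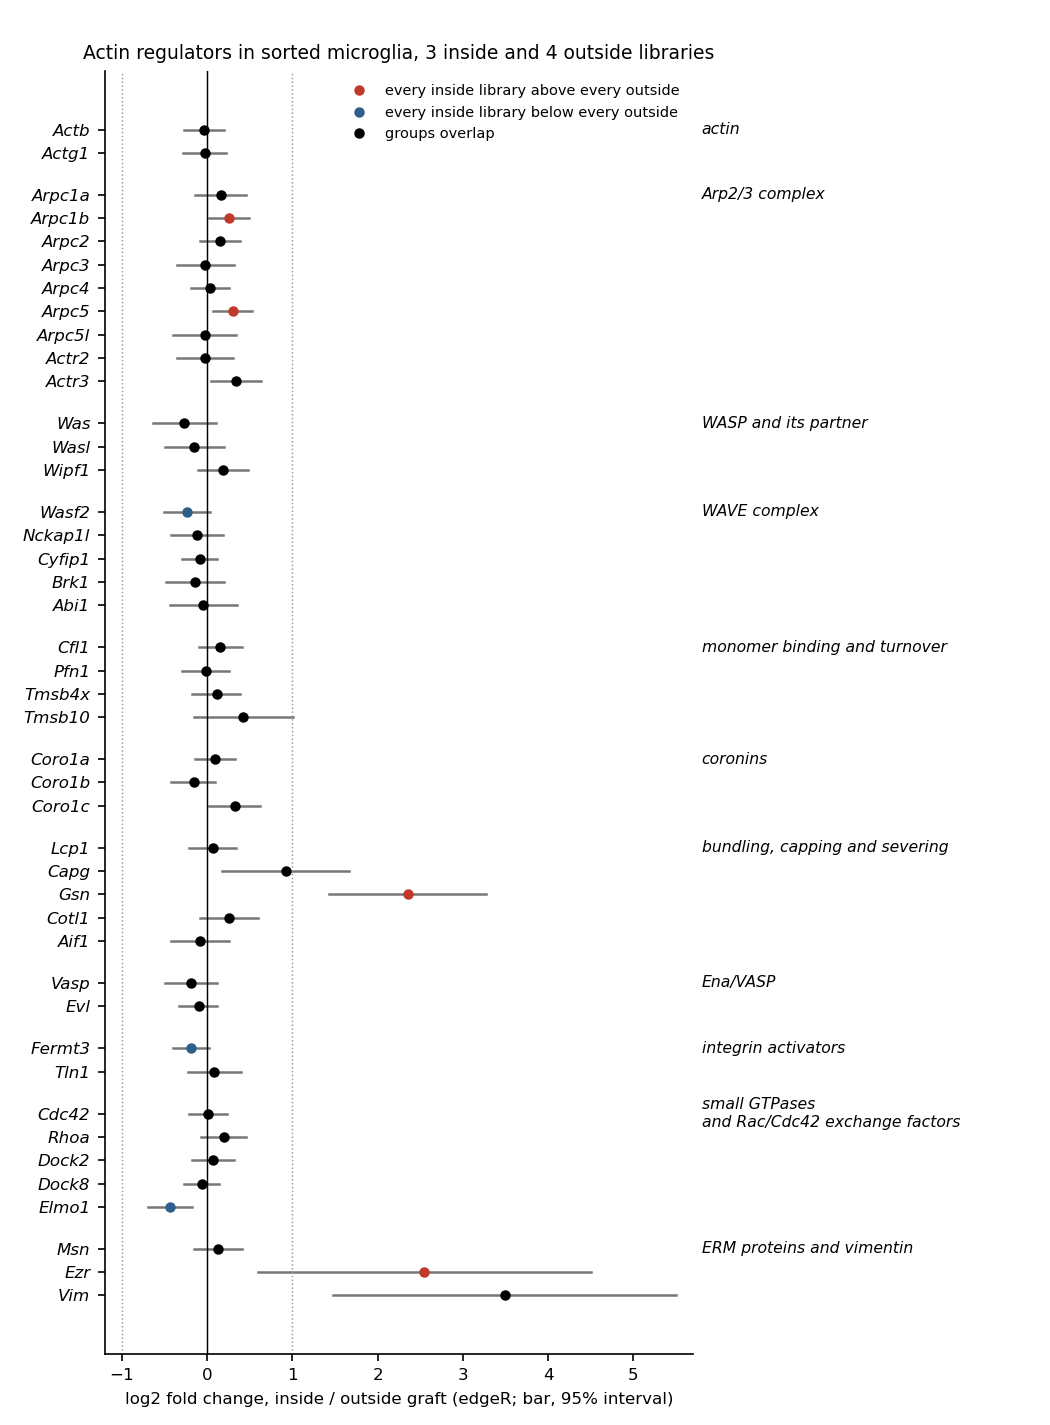
Log2 fold change of each of the 43 actin regulators, inside over outside the graft (horizontal axis), with its 95% interval from edgeR, by functional class; dotted lines mark a factor of 2 and colour shows whether the 3 inside and 4 outside libraries overlap. The dots of 39 members lie within 0.5 of 0, and those of Capg, Gsn, Ezr and Vim lie farther to the right.

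In 4 members the lowest inside library exceeded the highest outside library (9.30%, beside 5.65% of all genes), and in 3 every inside library lay below (6.98%, beside 5.02%). The former were Arpc1b, Arpc5, Gsn and Ezr, and the latter Wasf2, Fermt3 and Elmo1. This count of 7 members became 12 when inside graft 1 or inside graft 3 was left out, 15 when inside graft 2 was, 13 when outside graft 2 was and 11 when outside graft 4 was. The share of all genes without overlap then rose as well, to between 14.7% and 20.1%, since fewer libraries overlap less easily.

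Both actin genes had intervals that lay close around 0. Actb (chromosome 5, 142903115 to 142906754, GRCm38, minus strand), the main cytoplasmic actin of these cells, had 7838, 7286 and 7005 CPM inside and 7874, 8573, 7689 and 6149 CPM outside. The inside libraries lay within the range of the outside libraries. Its log2 fold change was -0.04 (s.e. 0.11, 95% interval -0.27 to 0.20) with edgeR and 0.03 with voomWithQualityWeights. Actg1 was at 167 ± 12.2 CPM inside (SD, n = 3) and 170 ± 14.7 CPM outside (SD, n = 4), and its level per exon length was between 0.0198 and 0.0284 of that of Actb in every library. Multi-mapping reads were left out of the counts, so genes with near-identical copies are undercounted, such as both actins, the thymosins, Cfl1 and Pfn1, and ratios between them are uncertain.

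Of the 9 Arp2/3 complex genes, 6 had a fold change above 0 and 3 below with edgeR, and 8 and 1 with voomWithQualityWeights. The class median was 0.15 on the log2 scale (edgeR), and no member's interval reached a factor of 2. The signs of Arpc3, Arpc4, Arpc5l and Actr2, all near 0, turned when 1 library was left out. Arpc5 (chromosome 1, 152766542 to 152775597), a subunit of the complex, had 285, 274 and 281 CPM inside and 213, 255, 218 and 223 CPM outside. The groups did not overlap, with a log2 fold change of 0.30 (s.e. 0.10), an unadjusted edgeR P of 0.0157 and an adjusted P of 0.338. Its paralogue Arpc5l had 84.6 to 92.2 CPM inside and 79.3 to 122 CPM outside, the highest of them in outside graft 1. Arpc1b (chromosome 5, 145114215 to 145130705), the haematopoietic form of another subunit, had 439, 511 and 437 CPM inside and 360, 400, 380 and 411 CPM outside. All inside values lay above all outside values, with a log2 fold change of 0.25 (s.e. 0.11, edgeR adjusted P = 0.481). The gene shares 18.2% of its exon bases with Pdap1 on the opposite strand, and counting ignored strand, so the counts of both are uncertain. Pdap1 had at most 600 counts and Arpc1b at least 6741. Actr3, which encodes the actin-related protein ARP3, had the largest fold change of the class, with 245, 181 and 237 CPM inside and 168, 165, 168 and 197 CPM outside. Inside graft 2 lay below outside graft 4, so that the groups overlapped, and the log2 fold change was 0.34 (s.e. 0.13, edgeR adjusted P = 0.422). ARP2, the partner of ARP3, is encoded by Actr2, which had a log2 fold change of -0.03 (s.e. 0.15). Summed over the class, the level was 2342 ± 56.4 CPM inside (SD, n = 3) and 2114 ± 92.2 CPM outside (SD, n = 4).

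All 5 WAVE complex genes, whose proteins activate Arp2/3, had fold changes below 0 with both tests, from -0.24 to -0.05 on the log2 scale with edgeR, and none passed an unadjusted edgeR P of 0.05. That of Abi1 ranged from -0.33 to 0.09 with each library left out. Wasf2 (chromosome 4, 133130505 to 133199756), which encodes WAVE2, the subunit that contacts Arp2/3, had 295, 279 and 303 CPM inside and 412, 323, 322 and 322 CPM outside. Every inside library lay below every outside library, but outside graft 1 carried much of the distance. The log2 fold change was -0.24 (s.e. 0.12, edgeR adjusted P = 0.588) and -0.14 without outside graft 1. Nckap1l, the haematopoietic scaffold of the complex (HEM1), had 693 to 858 CPM inside and 712 to 988 CPM outside, and Cyfip1, which binds Rac, had 1089 to 1278 CPM inside and 1185 to 1304 CPM outside. Was, which encodes WASP, the haematopoietic activator that Cdc42 turns on, had 28.6, 32.9 and 37.6 CPM inside and 45.3, 42.8, 35.9 and 35.3 CPM outside. Its groups overlapped, with a log2 fold change of -0.27 (s.e. 0.17, edgeR adjusted P = 0.692). Wipf1, the partner that stabilizes WASP, was at 57.6 ± 5.97 CPM inside (SD, n = 3) and 50.7 ± 2.81 CPM outside (SD, n = 4).

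The monomer-binding genes included the most abundant of the set. Per kilobase of exon, Tmsb4x, which encodes the monomer-sequestering thymosin β4, was first with 4882 CPM per kb over all libraries, followed by Actb with 2795 and Aif1 with 362.7. Tmsb4x had 6544, 8128 and 6247 CPM inside and 6855, 7668, 5590 and 5819 CPM outside, with a log2 fold change of 0.11 (s.e. 0.13). The sign of this value changed when inside graft 2, its highest library, was left out (-0.02). Tmsb10, the second thymosin, was between 0.00167 and 0.00265 of Tmsb4x per length in every library and had 11.8, 20.1 and 13.8 CPM inside and 10.7, 14.2, 9.21 and 11.3 CPM outside. Its groups overlapped, and inside graft 2 was highest again (log2 fold change 0.42, s.e. 0.26, edgeR adjusted P = 0.687). Cfl1 (cofilin) and Pfn1 (profilin) had log2 fold changes of 0.15 (s.e. 0.11) and -0.02 (s.e. 0.13).

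**Figure D2:**
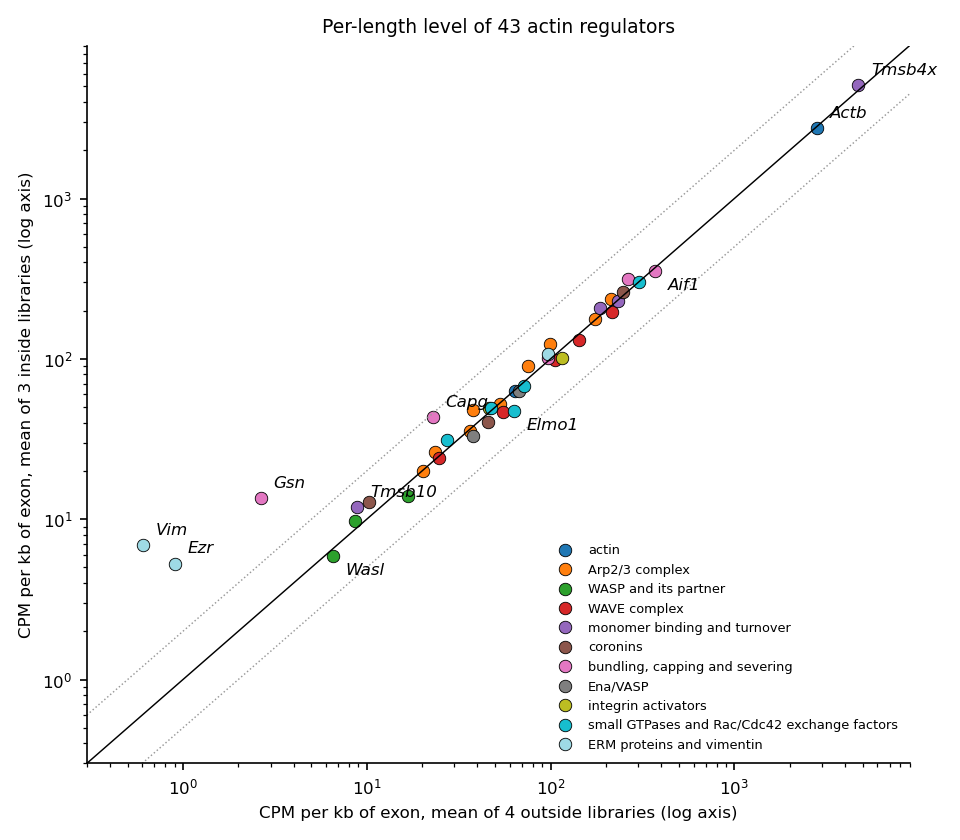
Mean level per kilobase of exon of each of the 43 genes in the 4 outside libraries (horizontal, log axis) and the 3 inside libraries (vertical, log axis), coloured by functional class; the solid line marks equal levels and dotted lines a factor of 2. Tmsb4x and Actb stand at the top on the line, and Vim, Ezr and Gsn, the 3 genes farthest above it, are at the lower left.

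The coronins, which promote turnover of branched filaments, included Coro1a, the dominant form, at 730 ± 33.8 CPM inside (SD, n = 3) and 687 ± 59.4 CPM outside (SD, n = 4). Coro1c had 136, 115 and 123 CPM inside and 118, 83.8, 96.0 and 102 CPM outside. Its lowest inside library lay just below its highest outside library, outside graft 1 (log2 fold change 0.32, s.e. 0.14, edgeR adjusted P = 0.487). The per-length ratio of Coro1b to Coro1a was 0.162, 0.161 and 0.140 inside and 0.203, 0.165, 0.196 and 0.178 outside, so that all inside ratios lay below all outside ratios. Of the ratios examined between members, only this one and that of Ezr to Msn did not overlap. Coro1b shares 13.5% of its exon bases with Ptprcap, so its per-length level is uncertain. Coro1b itself had a log2 fold change of -0.16 (s.e. 0.11), and its groups overlapped. The Ena/VASP genes Vasp and Evl, whose proteins speed elongation at filament ends, had log2 fold changes of -0.19 (s.e. 0.14) and -0.10 (s.e. 0.10). Vasp had 82.3, 77.5 and 101 CPM inside and 113, 97.4, 86.3 and 102 CPM outside, and its groups overlapped.

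The genes that differed most between the libraries encode a severing protein, a capping protein, a membrane linker and an intermediate filament. Gsn (chromosome 2, 35256380 to 35307892), which encodes gelsolin, the calcium-activated protein that severs and caps filaments, had 46.8, 17.9 and 63.7 CPM inside and 10.6, 8.23, 4.51 and 10.3 CPM outside. The inside libraries all exceeded the outside ones, and inside graft 2 was nearest to them. The log2 fold change was 2.35 (s.e. 0.41, 95% interval 1.43 to 3.27), or 5.10-fold, with an adjusted P of 0.0710 with edgeR and 0.0546 with voomWithQualityWeights. With each library left out in turn it stayed between 1.95 and 2.72.

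Ezr (chromosome 17, 6738041 to 6782784) encodes ezrin, which ties filaments to the plasma membrane. It had 20.96, 8.83 and 22.2 CPM inside, and outside it had 3.63, 3.46 and 4.78 CPM in libraries 1, 3 and 4 and 0 counts in library 2, which allows a level of up to 0.133 CPM. The groups did not overlap, and the log2 fold change was 2.54 (s.e. 0.88, edgeR adjusted P = 0.340). Moesin, of the same family, is encoded by Msn, which had 756, 560 and 707 CPM inside and 565, 591, 638 and 669 CPM outside (log2 fold change 0.13, s.e. 0.13). Per length, Ezr was between 0.0304 and 0.0604 of Msn inside and between 0 and 0.0137 of it outside.

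Vim (chromosome 2, 13573927 to 13582826), which encodes vimentin, had 26.8, 7.55 and 63.6 CPM inside and 1.28, 0.267, 2.29 and 7.70 CPM outside. Inside graft 2 lay below outside graft 4, so that the groups overlapped, although the fold change was the largest of the members. The log2 fold change was 3.49 (s.e. 0.90, edgeR adjusted P = 0.168), and it ranged from 2.57 without inside graft 3 to 4.66 without outside graft 4.

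Capg, which encodes a capping protein of the gelsolin family and is described here because its values stood out, had 114, 148 and 65.7 CPM inside and 60.5, 90.8, 33.8 and 46.3 CPM outside. Its groups overlapped, and inside graft 2 was its highest library. The log2 fold change was 0.92 (s.e. 0.33, edgeR adjusted P = 0.386). The bundling gene Lcp1 (L-plastin) and Cotl1 (coactosin-like) had log2 fold changes of 0.06 (s.e. 0.12) and 0.25 (s.e. 0.15). Aif1, which encodes IBA1, an actin-bundling protein used to stain microglia, had 472, 670 and 472 CPM inside and 588, 654, 498 and 537 CPM outside. Its groups overlapped, with a log2 fold change of -0.08 (s.e. 0.15, 95% interval -0.42 to 0.26).

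**Figure D3:**
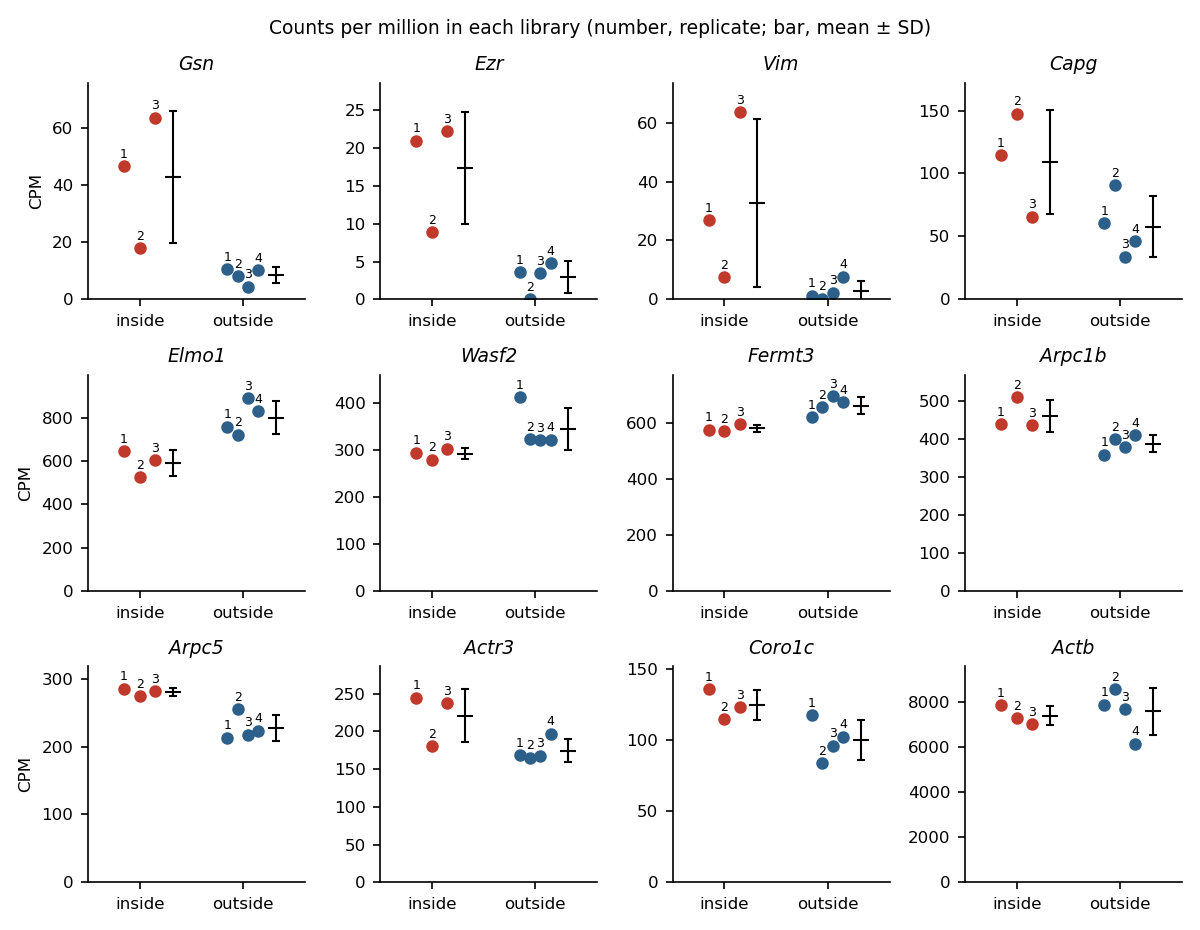
CPM of 12 actin regulators in each library (vertical axes start at 0; numbers are the replicates; bars are the mean ± SD of 3 inside and 4 outside libraries, cut at 0 for Vim). Inside graft 2 is the lowest inside library for Gsn, Ezr and Vim and the highest for Capg, and the groups for Elmo1, Fermt3 and Arpc5 do not overlap.

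Among the inside libraries, summed markers of other cells had the same order as some of these genes. The 8 monocyte markers summed to 662, 95.1 and 1371 CPM inside and to between 17.7 and 38.8 CPM outside, and the 6 neutrophil markers to 3727, 391 and 7957 CPM inside and to 0.267, 0.311, 178 and 18.8 CPM outside. Of these, 2 monocyte markers (Ly6c2 and Chil3) and 3 neutrophil markers (S100a8, S100a9 and Ly6g) were higher in every inside library than in any outside library. The same held for 5.65% of all genes tested. Chil3 alone, with 587, 67.6 and 1189 CPM, gave most of the monocyte sum inside. In outside graft 4 much of that sum was Ccr2 (18.1 CPM), whose groups overlapped. S100a8 and S100a9 gave most of the neutrophil sum. Border-associated macrophage markers summed to 118, 16.8 and 125 CPM inside and to between 5.96 and 17.8 CPM outside, and 2 of the 8 (Pf4 and Ms4a7) did not overlap. All 3 sums were lowest in inside graft 2 and highest in inside graft 3 among the inside libraries, the order of Gsn, Ezr and Vim. This order was not particular to these genes. Actr2 (192, 145 and 219 CPM inside) and Vasp (82.3, 77.5 and 101 CPM inside) had it too, whereas many members had other orders. Vim and Ezr were highest outside in outside graft 4, which also held the highest monocyte sum there. Gsn, Ezr and the monocyte and neutrophil sums were above all outside libraries also in inside graft 2. Vim and the border-associated macrophage sum were not. The border-associated macrophage sum was highest outside in outside graft 1 (17.8 CPM), as was Gsn (10.6 CPM). The neutrophil sum was highest outside in outside graft 3 (178 CPM), where Gsn was lowest (4.51 CPM) and Vim had 2.29 CPM. Among the inside libraries, Capg had the opposite order to Gsn, Ezr and Vim. The 6 markers of dividing cells summed to 105, 77.1 and 114 CPM inside, again the order of Gsn, Ezr and Vim. Outside they summed to 13.5, 34.6, 6.08 and 11.8 CPM, and none of the 6 overlapped. The part of these cells in the values of Gsn, Ezr, Vim and Capg was not tested. The sort used antibodies to Ly6C and Ly6G. In bulk samples, fewer cells of a type and less RNA per cell cannot be told apart.

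**Figure D4:**
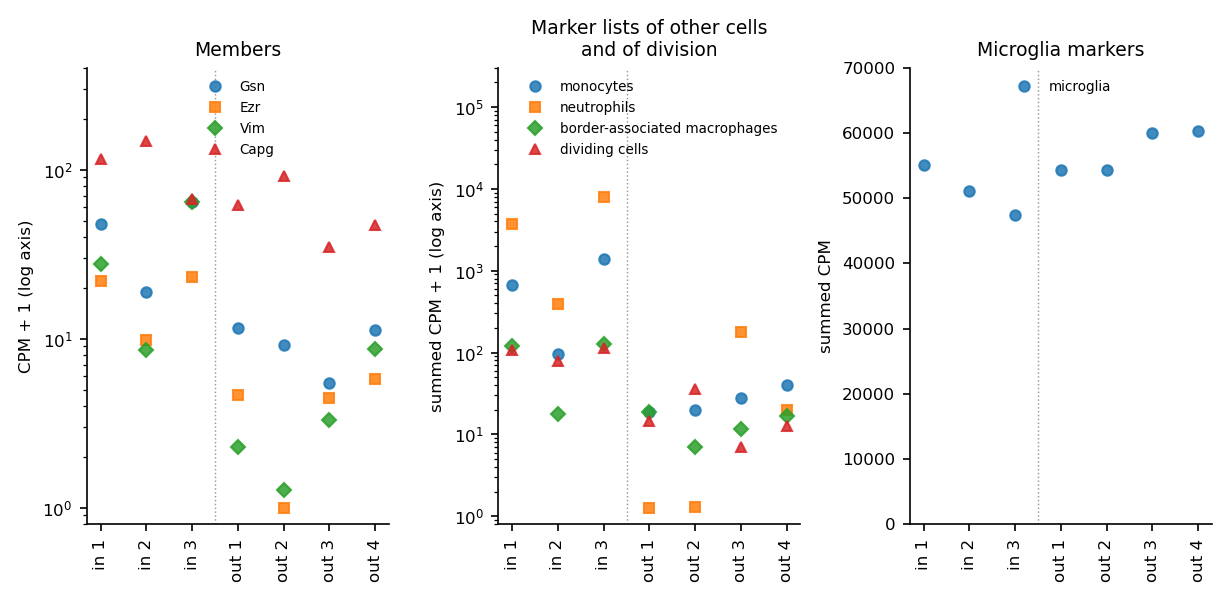
Level of Gsn, Ezr, Vim and Capg (left, CPM + 1, log axis), summed markers of 3 other myeloid cell types and of dividing cells (middle, summed CPM + 1, log axis) and summed microglia markers (right, linear axis) in each inside (in) and outside (out) library. The monocyte and neutrophil sums are lowest inside in library 2, as are Gsn, Ezr and Vim, and in library 3 inside the points of Gsn, Vim and Capg (63.7, 63.6 and 65.7 CPM) cover each other.

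Among regulators of Rac and of integrins, the values of Elmo1 and Fermt3 were lower in every inside library. Elmo1 (chromosome 13, 20090596 to 20608353) encodes the adaptor that joins DOCK proteins to activate Rac during engulfment of dying cells and in migration. It had 645, 525 and 605 CPM inside and 758, 722, 890 and 831 CPM outside. The groups did not overlap, with a log2 fold change of -0.44 (s.e. 0.12, 95% interval -0.70 to -0.18) and an adjusted P of 0.183 with edgeR and 0.0704 with voomWithQualityWeights. With each library left out in turn it stayed between -0.50 and -0.36. DOCK2 and DOCK8, exchange factors for Rac and Cdc42, are encoded by Dock2 and Dock8, which had log2 fold changes of 0.06 (s.e. 0.11) and -0.06 (s.e. 0.09). The GTPases Cdc42 and Rhoa had log2 fold changes of 0.01 (s.e. 0.10) and 0.20 (s.e. 0.12). Fermt3 (chromosome 19, 6998958 to 7019469), which encodes kindlin-3, a protein that activates integrins in blood cells and microglia, had 578, 573 and 597 CPM inside and 623, 658, 698 and 675 CPM outside. Its groups did not overlap, with a log2 fold change of -0.19 (s.e. 0.09, edgeR adjusted P = 0.573). Tln1 (talin-1), the other integrin activator, had a log2 fold change of 0.08 (s.e. 0.14).

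Promoter windows of 300 bases, from 250 before to 50 after a RefSeq start site, were matched for 37 of the 43 members (49 windows, GRCm38.p6). Those of Vim and Ezr, the members with the largest fold changes, and of Elmo1, the member with the lowest, are shown with motif matches in capitals. Both strands were searched. The TATA box was searched as TATAAA. The AP-1 site was searched as TGACTCA. The core bound by PU.1 and other ETS factors was searched as GAGGAA. No matches overlap in these windows. The windows are chr2:13574061-13574360 on the plus strand for Vim, chr17:6782731-6783030 on the minus strand for Ezr and chr13:20090257-20090556 on the plus strand for Elmo1.
Vim: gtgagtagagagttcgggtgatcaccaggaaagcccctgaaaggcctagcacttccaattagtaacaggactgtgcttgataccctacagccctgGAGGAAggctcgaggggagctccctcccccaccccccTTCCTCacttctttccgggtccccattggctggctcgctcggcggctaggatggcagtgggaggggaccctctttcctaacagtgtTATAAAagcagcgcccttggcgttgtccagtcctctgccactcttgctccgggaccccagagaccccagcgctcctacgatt
Ezr: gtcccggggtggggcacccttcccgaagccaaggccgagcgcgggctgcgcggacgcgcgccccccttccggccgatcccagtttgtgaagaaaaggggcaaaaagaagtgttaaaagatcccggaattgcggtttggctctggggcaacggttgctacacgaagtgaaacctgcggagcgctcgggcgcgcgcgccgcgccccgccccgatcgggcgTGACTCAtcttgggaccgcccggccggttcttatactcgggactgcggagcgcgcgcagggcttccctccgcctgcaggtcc
Elmo1: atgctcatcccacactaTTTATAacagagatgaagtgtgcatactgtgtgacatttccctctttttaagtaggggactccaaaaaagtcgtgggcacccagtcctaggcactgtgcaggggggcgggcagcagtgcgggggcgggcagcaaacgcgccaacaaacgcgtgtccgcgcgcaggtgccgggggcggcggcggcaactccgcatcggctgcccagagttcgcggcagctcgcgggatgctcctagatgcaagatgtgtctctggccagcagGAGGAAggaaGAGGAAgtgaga

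The TATAAA of Vim lies at bases 219 to 224 of its window, upstream of the start, whereas that of Elmo1, on the minus strand, is at bases 18 to 23. The Ezr window holds TGACTCA at bases 219 to 225, and it was the only member window with that motif, which 5.20% of all 32851 windows hold. TATAAA was found in 4 member windows and in 13.6% of all windows, and GAGGAA in 15 member windows and in 28.3% of all windows. The CArG box, the serum response factor motif of many actin genes, was in the windows of Actg1 and Arpc4 and in 1.63% of all windows. Actb, Arpc5l, Nckap1l, Coro1b, Cotl1 and Cyfip1 had no window, so they were not searched for any motif. A match describes the letters in a window and not a site in use. Elmo1 has another window, which is not shown.

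A further 81 genes of actin regulation, among them other small GTPases, formins, myosins, tropomyosins and adhesion adaptors, were listed for comparison, and 77 were tested. With edgeR 0 of the 77 passed an adjusted P of 0.05, beside 0.0983% of all genes. With voomWithQualityWeights 1 passed (1.30%, beside 0.492% of all genes), Rhob, which encodes an endosomal small GTPase. Rhob had 306, 317 and 298 CPM inside and 505, 429, 435 and 418 CPM outside, and no inside library reached the lowest outside library. Its log2 fold change was -0.54, with an adjusted P of 0.0411 with voomWithQualityWeights and 0.0919 with edgeR. At an unadjusted edgeR P below 0.05, 20 of the 77 (26.0%) had higher and 5 (6.49%) had lower levels inside, and 12 (15.6%) lay above and 6 (7.79%) below in every inside library. The median log2 fold change of the 77 was 0.07. Iqgap1, a scaffold for Cdc42 and Rac, and Myo1e, a membrane-linked myosin, are named after their values were seen. Iqgap1 had 53.0, 26.2 and 92.0 CPM inside and 26.6, 14.1, 14.0 and 16.8 CPM outside (log2 fold change 1.68, edgeR adjusted P = 0.120), and was highest in inside graft 3 as Vim was. Myo1e had 132, 188 and 110 CPM inside and 53.1, 98.3, 51.1 and 69.8 CPM outside (log2 fold change 1.08, edgeR adjusted P = 0.125), and was highest in inside graft 2 as Capg was.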

How the data were processed

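CD11b+CD45low microglia were sorted from inside and outside WT grafts of 5xFAD mice. The authors aligned reads with STAR 2.7.2a to GRCm38 with GENCODE M21 and deposited featureCounts 1.6.2 output, raw counts for each gene name without normalization. Strand was not used and reads aligned to several places were not counted, so values of overlapping genes and close copies are uncertain. Groups and replicate numbers came from the labels, and coordinates from the annotation.

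From the counts, CPM scaled by the trimmed mean of M values (TMM) were computed over genes kept by filterByExpr. Groups were compared over all 15257 genes with edgeR 4.0.16 (glmQLFit and glmQLFTest, legacy method) and limma 3.58.1 (voomWithQualityWeights, the pipeline of the study), in R 4.3.3, with Benjamini-Hochberg adjustment and a threshold of 0.05 in place of the study's 0.01. Standard errors and 95% intervals of edgeR fold changes follow from its F statistic. The scripts were tested on simulated data. DESeq2 1.42.0, other size factors, other filters, the replicate number as a block, and each library left out were alternatives. Same-group libraries differed by at least 17.5 in chi-square per degree of freedom, so none was counted as a copy of another. Molecules were not tagged and reads are therefore not independent, so limits for a count of 0 (3 counts) cover counting error only.

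The members and lists were chosen with earlier results of these data known. The rule for members given in full named those past the threshold, those whose groups did not overlap, the largest fold change of each class, Actb, Aif1 and the 3 highest per-length levels, and Capg and Msn were added after their values were seen. No test was made of a list as a whole.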

Additional observations from a re-analysis of the deposited data

Results flagged for a closer look

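Of 64 sets of outside-graft values examined for a single library far from the other 3 (the members, their ratios, summed markers, total counts and the first principal component), 7 had a gap to the nearest library, as a share of the range, above Dixon's 95% critical value, where chance gives about 1 in 20, or 3.2. The score on the first principal component was 117 in outside graft 1 and 5.34 to 17.5 in the other outside libraries. In the same library Wasf2 was at 412 CPM beside 322 to 323 CPM, Arpc5l at 122 CPM beside 79.3 to 82.4 CPM, and summed oligodendrocyte markers at 154.8 CPM beside 163.7 to 165.5 CPM. In outside graft 4, Actr3 was at 197 CPM beside 165 to 168 CPM, and Evl at 212 CPM beside 193 to 196 CPM. Summed neutrophil markers reached 178 CPM in outside graft 3 beside 0.267 to 18.8 CPM in the other outside libraries.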

How the results depend on the processing

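The count of members past an adjusted P of 0.05, 0 with either test, changed under several settings. In place of edgeR's main test it was 2 with the DESeq2 Wald test (Gsn and Elmo1, 2.75% of all genes called). It was 3 with edgeR's newer quasi-likelihood method (1.62%) and 3 without a filter on low counts (1.24%), in both cases Gsn, Ezr and Vim. With at least 10 counts in every library it was 1 (Gsn, 0.762%), and 0 to 1 with each library left out (at most 0.455%). With voomWithQualityWeights it was 2 without the filter (0.762%) and 2 with at least 10 counts in every library (1.75%), in both cases Gsn and Elmo1. It was 0 to 2 with each library left out (at most 1.29%). Other size factors left both counts at 0. The median of the ERM and vimentin class, 2.54, was 0.14 with at least 10 counts in every library, since Ezr and Vim were then not tested. The count of members without overlap, 7, was 7 to 15 (16.3% to 34.9%) with a library left out, beside 14.3% to 20.1% of all genes.

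Deviations from the group means had correlations of -0.04, 0.09 and 0.07 for the 3 pairs of same-numbered libraries, and the numbers were not taken to pair the samples. With so few libraries, these correlations cannot show whether the samples were paired. With the replicate block, without outside graft 4, edgeR called 1 member (Vim, log2 fold change 4.65) and voomWithQualityWeights 4 (Capg, Gsn, Elmo1 and Vim), beside 43 and 265 of 14900 genes in all. Inside graft 2 and inside graft 3 correlated best with the outside library of their own number, and inside graft 1 with outside graft 4 (0.06).

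The sign of the log2 fold change turned for Actb with voomWithQualityWeights (0.032), and with 1 library left out for Actb (range -0.12 to 0.028, above 0 without outside graft 2), Tmsb4x (-0.019 to 0.20, below 0 without inside graft 2) and Aif1 (-0.27 to 0.008, above 0 without inside graft 1 or 3). It also turned with 1 library left out for Actg1, Arpc3, Arpc4, Arpc5l, Actr2, Abi1, Pfn1, Lcp1, Tln1 and Cdc42, with voomWithQualityWeights for Arpc3, Arpc5l and Pfn1, and with library size alone for Arpc4 and Cdc42. The remaining members kept their sign with voomWithQualityWeights and under the alternatives to the edgeR fit in which they were tested.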
